A study of Homo sapiens with 9 samples.

Results

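The 38 genes described here encode neuropeptides and peptide hormones: the urotensins, somatostatin, galanin, neuropeptide Y, the tachykinins, the opioid precursors, the corticotropin-releasing hormone family, the neuromedins, the calcitonin family, the natriuretic peptides, the endothelins and others. They were taken by gene symbol from a deposited table of 34961 genes, and all 38 were in it. The cells were WA09 human embryonic stem cells (also called H9) with a TPH2-EGFP knockin, in which a green fluorescent protein reports the serotonin-synthesis gene TPH2. Every group carried this genotype and the label induced serotonin neuron differentiation, the Day0 stem cells included. The groups were Day0 (embryonic stem cells), Day21 (neural progenitor cells) and Day42 (cells labelled as TPH2+ serotonin neurons), with 3 libraries each. The cells come from 1 line. The sample titles call the 3 libraries of a day biological replicates (Bio rep). The sources used here do not say how the Day42 cells were isolated or whether these replicates were separate cultures. The p-values therefore speak only of the scatter among these libraries, and how much of it is technical is not known.

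Peptide transmitters and hormones are made as longer precursor proteins, which are cut in the secretory pathway, stored in dense-core vesicles and released on stimulation. Most of them act on G-protein-coupled receptors of neighbouring or distant cells, more slowly than classical transmitters. Serotonin neurons of the brainstem raphe nuclei are known to store peptides beside serotonin, among them substance P and thyrotropin-releasing hormone in the medulla and galanin in the dorsal raphe of rodents.

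Depth was even, with total counts of 58526466 to 69658328 per library. TPH2 itself, which checks the labels, had counts of 17, 81 and 87 (Day0), 0, 4 and 4 (Day21) and 10730, 8567 and 8258 (Day42), in the order of replicates 1 to 3 used throughout. The 6 serotonin neuron markers listed together summed to between 1548 and 1768 CPM (counts scaled to library size) on Day42 and to at most 7.17 on the earlier days. Within this list FEV was even on Day42, with counts of 45210, 46411 and 47020. SLC18A2 (7596, 9399 and 65) and GATA2 (173, 95 and 1706) differed between the Day42 replicates. The Day42 libraries stand apart from the others in their zeros: 16077, 17101 and 10797 genes had a count above 0, against 22198 to 24741 in the other 6 libraries, and the biological coefficient of variation was 1.93 on Day42 against 0.557 on Day0 and 0.421 on Day21. Replicate 3 of Day42 had a count of 0 for 3764 genes that were above 12 in both other Day42 libraries. In replicate 2, 2230 genes above 12 were at 0 in both other Day42 libraries.

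A peptide gene was taken as detectable on a day when its count was above 12 in all 3 libraries. This limit was used because low counts pile up at 4, 8 and 12 in these tables. By it 17 of the 38 genes were detectable on Day0, as were 17 on Day21, but 6 on Day42. That is 44.7%, 44.7% and 15.8% of the peptide genes, beside 44.5%, 46.4% and 20.6% of all genes in the table. Galanin (GAL), TAC1 and PENK were detectable on all 3 days. UTS2 and CGA were detectable on Day42 only. On Day0 only, NPY, PDYN, POMC, CCK and NPPB passed, and on Day21 only, ADCYAP1, TRH, HCRT and EDN3. In all, 24 genes were detectable on at least 1 day, 13 were above 12 in some library but never in all 3 of a day, and PMCH, which encodes melanin-concentrating hormone, was above 12 in none. On Day42, 17 of the 38 genes had a count of 0 in all 3 libraries. No share over all genes is given for this count.

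**Figure D1:**
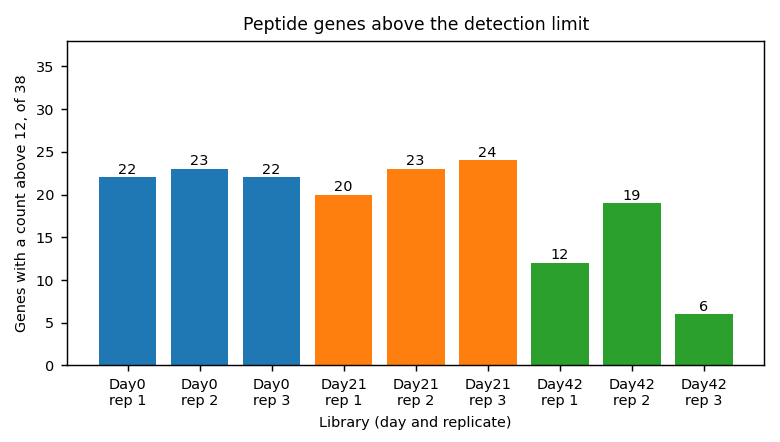
Number of the 38 peptide genes with a count above 12 in each library (bars, one per library, coloured by day). The 6 Day0 and Day21 libraries hold 20 to 24 such genes and the Day42 libraries 12, 19 and 6.

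The number above 12 in single Day42 libraries was uneven, at 12, 19 and 6 for replicates 1 to 3. Over all genes the numbers were 13946, 15039 and 8193. Of the 19 peptide genes above 12 in replicate 2, 7 were at 0 in both other libraries, beside 14.8% over all genes. Replicate 3 had 5 of the 38 peptide genes at 0 that were above 12 in both others, beside 3764 of all 34961 genes. Without replicate 3 the number detectable on Day42 was 11, and leaving out a library can only keep or raise that number. Whether these zeros belong to the libraries or to the cells was not tested.

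Although fewer peptide genes were detectable on Day42, the peptide genes held a larger share of all counts there, from 0.0819% to 0.111% of the library, against 0.0530% to 0.0603% on Day0 and 0.0211% to 0.0269% on Day21. Ranked by FPKM (fragments scaled to gene length and library size, the scale that allows levels of different genes to be compared), 1 gene led each day. GAL made up 62.9% of the summed FPKM of the 38 genes on Day0, followed by NMB at 12.6%. On Day21 SST led with 58.4%, followed by NMU at 20.3%. On Day42 TAC1 led with 41.6%, followed by CRH at 18.6%, UTS2 at 17.3% and GAL at 11.2%. On Day42 the FPKM of TAC1 lay between 182 and 229 and was above that of every other peptide gene in each library, while the ranges of CRH (29.6 to 145) and UTS2 (73.9 to 93.9) overlapped. These are bulk RNA samples, so fewer cells of a type and less RNA per cell cannot be told apart here or in any result below.

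**Figure D2:**
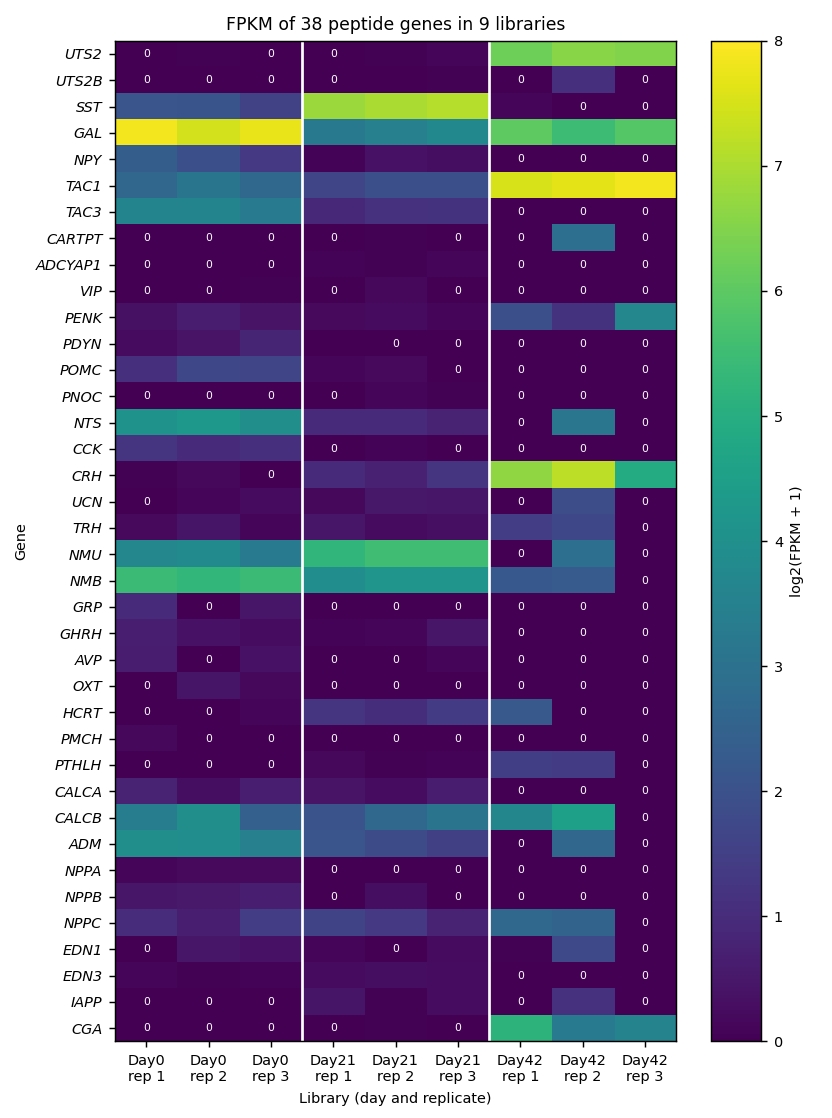
FPKM of the 38 peptide genes (rows) in the 9 libraries (columns, grouped by day), as log2(FPKM + 1) in colour. Cells marked 0 have an FPKM of exactly 0. GAL is bright on Day0 and Day42, SST and NMU on Day21, and TAC1, CRH and UTS2 on Day42, where most other rows are at 0 in replicate 3.

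Differences between days were tested with edgeR's quasi-likelihood test, with 1 mean per day and a spread shared by all 9 libraries. A gene counted as changed when its Benjamini-Hochberg adjusted p over all 20156 genes tested was under 0.05 and its log2 fold change was at least 1 in size. Of the 38 genes 30 had enough counts to be tested, and UTS2B, CARTPT, VIP, PNOC, GRP, AVP, OXT and PMCH did not. Each call was recomputed under up to 18 other settings: another scaling, filters, tools, a replicate block, only the 2 days compared, and each library left out in turn. The 3 comparisons share their libraries, so their counts are not independent of each other.

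From Day0 to Day21, 1 peptide gene rose (SST) and 1 fell (GAL), while 1.32% of all tested genes rose and 1.18% fell. The spread in this fit is shared with the Day42 libraries. With only the 6 libraries of these 2 days, 26 peptide genes could be tested, of which 5 rose (ADCYAP1, CRH, HCRT, NMU, SST) and 11 fell (ADM, CCK, GAL, NMB, NPPA, NPY, NTS, PDYN, POMC, TAC1, TAC3). In that fit 13.0% of all genes rose and 12.6% fell. Without Day42 replicate 3 alone, the counts were 4 higher and 6 lower. No share over all genes is given for this fit, here or in the 2 comparisons below. The median log2 change of the 30 tested genes from Day0 to Day21 was -0.93, beside 0.03 over all genes. A fitted value against a day at 0 is not a measured fold, so medians are also given with each gene that has a day at 0 set to its bound, the fold against 12 counts per library of that day, or to 0 where no bound can be given. So computed they were -0.70 and 0.02.

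From Day21 to Day42, 6 genes rose (CGA, CRH, GAL, PENK, TAC1, UTS2) and 8 fell (ADCYAP1, CALCA, EDN3, GHRH, NPY, POMC, SST, TAC3). These are 20.0% and 26.7% of the 30 tested, where 6.52% of all genes rose and 19.7% fell. The median log2 change was -0.38 against -0.54 over all genes, and 0.0 against -0.28 with the 11 genes that have a day at 0 set to their bound. Without Day42 replicate 3, 7 rose and 8 fell: PTHLH joined the genes that rose, NMB joined those that fell and POMC left them.

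From Day0 to Day42, 6 genes rose (CGA, CRH, PENK, PTHLH, TAC1, UTS2) and 13 fell (CALCA, CCK, EDN3, GAL, GHRH, NMB, NPPA, NPPB, NPY, PDYN, POMC, SST, TAC3). Their shares of the tested genes were 20.0% and 43.3%, where 8.82% of all genes rose and 23.4% fell. The median log2 change was -2.88 for the peptide genes and -0.57 for all genes, and -0.87 and -0.29 with genes at 0 on a day, 14 of the peptide genes, set to their bound. Without Day42 replicate 3, 6 rose and 12 fell: TRH joined the genes that rose and PENK left them, and NPPB no longer counted as lower.

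**Figure D3:**
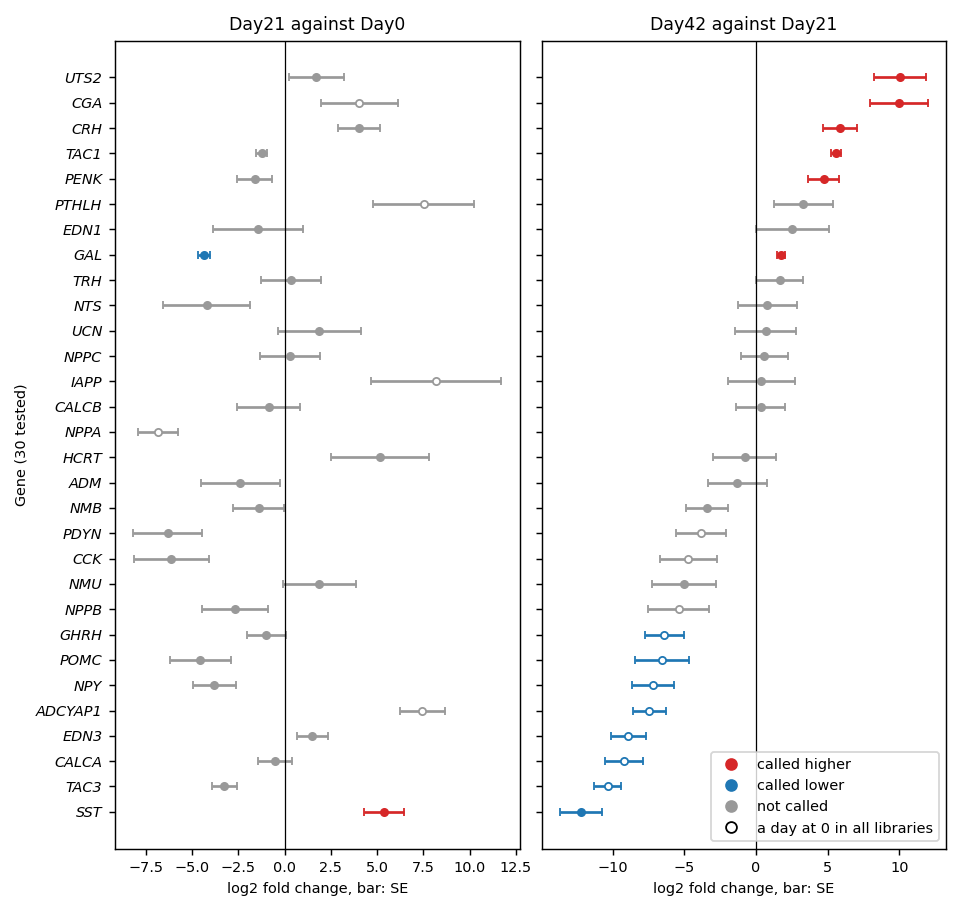
log2 fold change with its approximate standard error, derived from the test statistic (bars), for the tested peptide genes, Day21 against Day0 (left) and Day42 against Day21 (right), coloured by whether the change passed the test. Open points have a count of 0 in all 3 libraries of one of the days, so their position depends on the fitting and is not an estimate of the change. NPPA has no point on the right because both days are at 0. UTS2 and CGA stand at the upper end for Day42 against Day21 and SST at the lower end.

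Urotensin 2, encoded by UTS2, is a vasoactive peptide related to somatostatin that is also made in motor neurons of the brainstem and spinal cord. UTS2 (chr1:7843083-7853512, minus strand) had counts of 0, 6 and 0 (Day0), 0, 4 and 17 (Day21) and 9230, 12109 and 12469 (Day42). All Day42 libraries were far above all others, and the early days overlapped at or near 0. The log2 change from Day21 to Day42 was 10.07 ± 1.81 (SE, edgeR adjusted p = 0.00487), and from Day0 11.78 ± 1.95 (edgeR adjusted p = 0.0029). Both passed under each of 18 other settings. As the early counts are near 0, the sizes moved with single libraries, to 11.85 without Day21 replicate 3, and to 16.14 and 11.18 against Day0 without its replicate 2 or 3. On Day42 its mean FPKM was 85.5, above that of 98.5% of all genes in the table. Exons of UTS2 overlap those of PER3 on the other strand in GENCODE release 29, and no source used here states whether reads were counted by strand. Its paralog UTS2B was above 12 in 1 library only, Day42 replicate 2, with a count of 311 against 0 in both other Day42 libraries. Of the 4 motor neuron markers, none was detectable on Day42 and the vesicular acetylcholine transporter gene SLC18A3 was at 0 in all 3 libraries. Their sum on Day42 was 0 to 5.86 CPM, most of it from the choline transporter gene SLC5A7, which had counts of 0, 354 and 0, and its part in the UTS2 level was not tested.

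**Figure D4:**
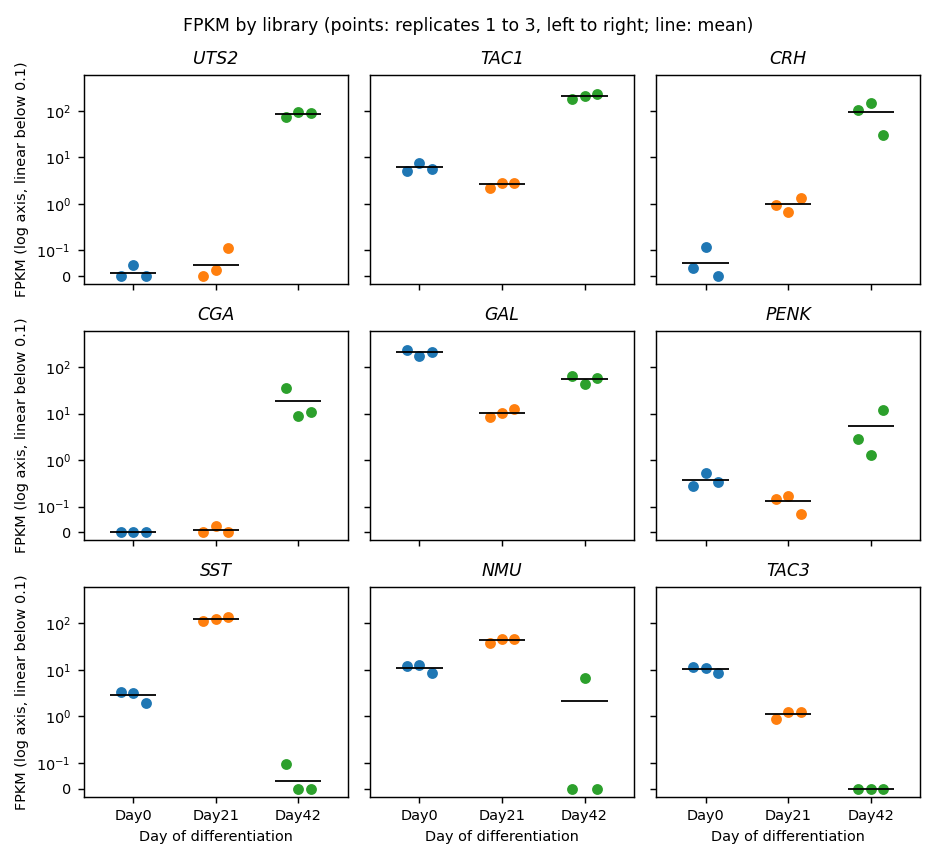
FPKM of 9 peptide genes by day (log axis, linear below 0.1): points are the replicates 1 to 3 from left to right, and lines are means. UTS2 and CGA are near 0 until Day42. SST peaks on Day21, NMU is highest there too, and GAL is lowest on Day21. TAC3 is at 0 in all 3 Day42 libraries.

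Somatostatin, the inhibitory peptide encoded by SST, peaked on Day21. The counts of SST (chr3:187668912-187670394, minus strand) were 144, 157 and 96 (Day0), 5718, 6306 and 6631 (Day21) and 5, 0 and 0 (Day42). No library of one day overlapped those of another. The rise to Day21 was 5.38 ± 1.09 on the log2 scale (SE, edgeR adjusted p = 0.0445). This call was lost when any single Day0 or Day21 library was left out and in a fit with the replicate number as a block, with adjusted p-values up to 0.192 over 18 other settings, while the fit of these 2 days alone gave 5.37 ± 0.36 (edgeR adjusted p = 0.000128). From Day21 to Day42 SST fell by 12.19 ± 1.47 on the log2 scale (edgeR adjusted p = 0.00125), which passed under all 18 other settings, at -15.69 without Day42 replicate 1 and -11.59 without replicate 2. Its fall from Day0 to Day42 passed as well (-6.81 ± 1.22, edgeR adjusted p = 0.00381) and was lost only with the libraries of those 2 days alone (adjusted p = 0.0615), its size being -10.33 without Day42 replicate 1 and -6.22 without replicate 2. The Day21 libraries also carried fibroblast and mesenchyme markers: 5 of the 6 listed were detectable, none was at 0 in all libraries, and their sum was 505 to 651 CPM, against 8.90 to 17.6 on Day0 and 159 to 225 on Day42. All 6 neural progenitor markers were detectable on Day21 as well, at 837 to 1327 CPM. Their sum was 84.6 to 138 CPM on Day0 and 365 to 545 on Day42. The 6 pan-neuronal markers were all detectable on Day21 too, at 330 to 454 CPM. They summed to 15.4 to 37.5 CPM on Day0 and 5179 to 5947 on Day42. The part of each of these lists in the SST level was not tested.

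SST is the textbook case of a gene driven through a cyclic AMP response element (CRE), the palindrome TGACGTCA that binds CREB. The RefSeq promoter table (GRCh38.p14) holds 40 promoters of 31 of the peptide genes, and none for PENK, EDN3, CALCB, PNOC, NPPB, CRH and GAL. The 250 bases before each start were searched for TGACGTCA, which reads the same on both strands, for its first part TGACG and for the TATA box letters TATAAA, the last 2 on both strands. TGACGTCA was in 3 of the 40 promoters (7.5%), those of SST, CGA and CARTPT, and in 1.65% of 35116 promoters. TGACG, which every TGACGTCA also holds, was in 35.0% and 21.2%, and TATAAA in 32.5% and 10.7%. The 150 bases before the start are printed 5′ to 3′ for these 3 genes and, for comparison, for UTS2, whose 2 RefSeq promoters hold no TGACGTCA. Capitals mark TGACGTCA and TATAAA. The stretches are chr3:187670395-187670544 (SST), chr6:87095107-87095256 (CGA) and chr1:7853492-7853641 (UTS2), all on the minus strand, and chr5:71719125-71719274 on the plus strand (CARTPT).
SST: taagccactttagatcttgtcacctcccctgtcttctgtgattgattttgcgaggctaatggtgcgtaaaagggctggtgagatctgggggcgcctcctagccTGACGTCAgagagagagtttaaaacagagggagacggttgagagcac
CGA: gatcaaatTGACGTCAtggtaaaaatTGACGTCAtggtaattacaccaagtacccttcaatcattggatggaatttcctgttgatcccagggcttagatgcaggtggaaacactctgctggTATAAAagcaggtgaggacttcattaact
CARTPT: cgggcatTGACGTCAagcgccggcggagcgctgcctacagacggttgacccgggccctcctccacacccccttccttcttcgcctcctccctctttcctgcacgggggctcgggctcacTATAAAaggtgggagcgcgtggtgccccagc
UTS2: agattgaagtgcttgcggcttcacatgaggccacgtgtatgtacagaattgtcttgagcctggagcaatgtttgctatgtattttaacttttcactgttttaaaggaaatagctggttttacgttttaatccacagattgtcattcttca
The match lies 47 to 40 bases before the start in SST and 143 to 136 in CARTPT. In CGA there are 2 matches, at 142 to 135 and at 124 to 117. A match is a description of these letters, not a shown binding site, and its part in the counts was not tested. The 3 genes did not share a time course: SST was highest on Day21, CGA on Day42, and CARTPT, which encodes the peptide CART, was above 12 only in Day42 replicate 2, at 523.

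CGA encodes the alpha subunit shared by the pituitary glycoprotein hormones and placental chorionic gonadotropin, which is active only with a beta subunit. CGA (chr6:87085498-87095106, minus strand) was at 0 in all Day0 libraries, at 0, 5 and 0 on Day21, and at 4807, 1267 and 1717 on Day42. The Day42 libraries were all above the others and differed among themselves, with replicate 1 the highest. The Day42 level was at least 142-fold that of Day0, taking 12 counts in each Day0 library as the floor (edgeR adjusted p = 0.00642). Without Day42 replicate 1 the bound was 77.6-fold. Against Day21 the log2 change was 10.00 ± 2.01 (edgeR adjusted p = 0.013), lost only with the replicate number as a block (adjusted p = 0.0592). It was 9.19 without Day42 replicate 1 and 14.06 without Day21 replicate 2, the only Day21 library above 0. Of the 5 listed trophoblast markers in the table, none was detectable on Day42, and the beta subunit genes CGB3 and CGB5 and the syncytin gene ERVW-1 were at 0 in all 3 libraries. The summed level of that list was 0 to 9.64 CPM on Day42, nearly all of it from GCM1, a trophoblast transcription factor gene. GCM1 counts were 286, 589 and 0 on Day42 and at most 12 in any earlier library, and its part in the CGA level was not tested. The 5 hypothalamic and pituitary markers in the table (SIM1, OTP, RAX, NKX2-1 and TBX19) were at 0 in every Day42 library. The other listed markers, LHX3, PITX1 and POU1F1, were not in the table and could not be read.

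Galanin, encoded by GAL, acts through receptors that mostly inhibit neurons and is also abundant in cultured embryonic stem cells. GAL (chr11:68683779-68691175, plus strand) had counts of 21506, 18328 and 21917 (Day0), 937, 1087 and 1284 (Day21) and 5740, 4067 and 5959 (Day42). The 3 days did not overlap, and Day21 was the low point. GAL fell by 4.37 ± 0.33 on the log2 scale to Day21 (SE, edgeR adjusted p = 0.000743) and rose by 1.76 ± 0.30 from there to Day42 (edgeR adjusted p = 0.00399). On Day42 it stayed below Day0 (-2.61 ± 0.31, edgeR adjusted p = 0.000796). These 3 calls passed under every one of 18 other settings each.

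TAC1 encodes substance P and neurokinin A, excitatory tachykinins, and TAC3 encodes neurokinin B. TAC1 (chr7:97732084-97740465, plus strand) had counts of 630, 1052 and 760 (Day0), 322, 406 and 393 (Day21) and 21744, 25175 and 30720 (Day42). It was the most abundant peptide transcript of Day42, with a mean FPKM of 205 ± 23.2 (SD, n = 3), and no day overlapped another. The rise from Day21 was 5.61 ± 0.35 on the log2 scale (edgeR adjusted p = 0.00013). From Day0 it was 4.37 ± 0.33 (edgeR adjusted p = 0.000133), and both passed under all 18 other settings. From Day0 to Day21 the log2 change of -1.25 ± 0.29 did not pass (edgeR adjusted p = 0.0514), but with those 2 days alone it did (-1.26 ± 0.30, edgeR adjusted p = 0.0168). TAC3 ran the other way. Its counts were 1261, 1428 and 1091 (Day0), 116, 161 and 158 (Day21) and 0 in every Day42 library, with no overlap between days. On Day42 TAC3 was at least 17.1-fold lower than on Day21 (edgeR adjusted p = 0.00128) and at least 164-fold lower than on Day0 (edgeR adjusted p = 0.00047). These bounds, and all below with Day42 at 0, take a 0 as at most 12 counts. The many zeros of the Day42 libraries do not assure that. In GENCODE release 29 the exons of TAC3 overlap those of MYO1A on the same strand. The TAC3 span of that release differs from the deposited one, so whether the overlap touched the counting is not known.

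Corticotropin-releasing hormone (CRH) starts the pituitary stress response and is also made outside the hypothalamus. CRH counts were 4, 13 and 0 (Day0), 103, 73 and 136 (Day21) and 9099, 13429 and 2995 (Day42). Each day lay above the one before it in all libraries, and Day42 replicate 3 was the lowest of its day. The rise from Day21 to Day42 was 5.87 ± 1.21 on the log2 scale (SE, edgeR adjusted p = 0.00844), and from Day0 it was 9.88 ± 1.45 (edgeR adjusted p = 0.00193). Both passed under all 18 other settings, the latter at 11.19 without Day0 replicate 2 and 9.27 without Day0 replicate 3. The earlier step, from Day0 to Day21, had a log2 change of 4.0 ± 1.14 that passed only in some fits (edgeR adjusted p = 0.0948, and 0.0277 with these 2 days alone). The CRH-binding protein gene CRHBP, whose secreted product binds CRH, had counts of 0, 0 and 4 (Day0), 919, 908 and 765 (Day21) and 7691, 7678 and 4769 (Day42). CRHBP rose by 9.17 ± 1.19 on the log2 scale to Day21 (edgeR adjusted p = 0.00731, lost only with the replicate block, at 0.0609) and was 11.66 ± 1.29 above Day0 on Day42 (edgeR adjusted p = 0.000588). Without Day0 replicate 3, the only Day0 library above 0, these were 12.91 and 15.39. Its log2 change from Day21 to Day42, 2.49 ± 0.85, did not pass (edgeR adjusted p = 0.0624). The related peptide gene UCN, encoding urocortin, was above 12 in 2 Day21 libraries (29 and 27) and in Day42 replicate 2 (156).

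Of the opioid and melanocortin precursors, PENK rose on Day42 while PDYN and POMC were at 0. PENK, the precursor of the enkephalins, had counts of 70, 150 and 95 (Day0), 43, 50 and 20 (Day21) and 686, 309 and 3189 (Day42). The Day42 libraries were above all others but spread widely, with replicate 3 the highest. The rise from Day21 was 4.72 ± 1.07 on the log2 scale (edgeR adjusted p = 0.0126), lost without Day21 replicate 1 or 3 and with the replicate block (adjusted p up to 0.0746). Without Day42 replicate 3 it was 3.30. Against Day0 it was 3.10 ± 0.99 (edgeR adjusted p = 0.0424), which was lost in 11 of 18 other settings with adjusted p-values up to 0.157. Without Day42 replicate 3 it was 1.67 (edgeR adjusted p = 0.0812). PENK exons overlap the other-strand gene AC012349.1.

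PDYN, the dynorphin precursor, had counts of 47, 97 and 226 (Day0), 5, 0 and 0 (Day21) and 0 in every Day42 library. Against Day0 it was at least 14.9-fold lower on Day42 (edgeR adjusted p = 0.0144), lost only with the replicate block (adjusted p = 0.0625). Without Day0 replicate 3 the bound was 9.64-fold. POMC, the precursor of corticotropin, melanocortins and beta-endorphin, had counts of 125, 294 and 268 (Day0), 11, 20 and 0 (Day21) and 0 in every Day42 library. It was lower on Day42 than on Day0 by at least 28.6-fold (edgeR adjusted p = 0.0109), lost in 2 of 18 other settings with adjusted p-values up to 0.119. The POMC call against Day21 (edgeR adjusted p = 0.0471) rests on counts near the limit and was lost in 13 of 17 other settings, with adjusted p-values up to 0.692. PNOC, the nociceptin precursor, was above 12 in 1 library, at 16 on Day21.

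NPY, CCK and NTS, peptides of forebrain and gut that act on feeding, secretion and pain, were all highest on Day0. NPY counts were 263, 210 and 111 (Day0), 4, 25 and 17 (Day21) and 0 in every Day42 library. NPY was lower on Day42 than on Day0 by at least 26.3-fold (edgeR adjusted p = 0.00375), which passed under all 18 other settings. Against Day21 the bound was 1.88-fold (edgeR adjusted p = 0.0128, lost in 3 of 17 other settings, up to 0.465). CCK, for cholecystokinin, had counts of 199, 165 and 191 (Day0), 0, 8 and 0 (Day21) and 0 in every Day42 library, lower on Day42 than on Day0 by at least 24.2-fold (edgeR adjusted p = 0.0175). That call was lost without Day0 replicate 1 (adjusted p = 0.0502) and with the replicate block (0.0572). Its exons overlap the other-strand gene AC018358.1. NTS, for neurotensin, had counts of 1742, 2271 and 1809 (Day0), 130, 128 and 91 (Day21) and 0, 868 and 0 (Day42). Its Day0 and Day21 libraries did not overlap, while Day42 rests on replicate 2 alone. NTS passed between Day0 and Day21 with those days alone (-4.23 ± 0.28, edgeR adjusted p = 0.000127), not with all 9 libraries (-4.22 ± 2.35, edgeR adjusted p = 0.451).

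The neuromedins are smooth-muscle-active peptides, NMU also acting on feeding, and NMB being related to bombesin. NMU counts were 834, 1018 and 689 (Day0), 3129, 3697 and 3606 (Day21) and 0, 461 and 0 (Day42). Day21 was highest in every library, and 2 of the 3 Day42 libraries were at 0. With Day0 and Day21 alone, NMU rose by 1.87 ± 0.28 on the log2 scale (edgeR adjusted p = 0.0027), while with all 9 libraries the change of 1.88 ± 1.95 did not pass (edgeR adjusted p = 0.807). From Day21 to Day42 the log2 change of -5.03 ± 2.24 did not pass (unadjusted p = 0.0531 by edgeR), but it did without Day42 replicate 2 (edgeR adjusted p = 0.000743, the lowest of 17 other settings, the highest being 0.285). NMB had counts of 3126, 3173 and 3481 (Day0), 1228, 1439 and 1407 (Day21) and 254, 287 and 0 (Day42). The days descended without overlap. The log2 change from Day0 to Day42 was -4.79 ± 1.57 (edgeR adjusted p = 0.0466), which was lost in 11 of 18 other settings with adjusted p-values up to 0.127. GRP, for gastrin-releasing peptide, was above 12 only in 2 Day0 libraries (57 and 28) and at 0 on both later days.

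Of the calcitonin family, ADM and CALCB were well expressed early. ADM, encoding the vasodilator adrenomedullin, had counts of 2366, 2640 and 1916 (Day0), 660, 505 and 348 (Day21) and 0, 871 and 0 (Day42). Day0 was above Day21 in all libraries, and the Day42 value again rests on replicate 2. The step from Day0 to Day21 passed with those days alone (-2.41 ± 0.29, edgeR adjusted p = 0.00111), not with all libraries (-2.40 ± 2.14, edgeR adjusted p = 0.739). CALCB, which encodes the beta form of calcitonin gene-related peptide, had counts of 2627, 4606 and 1398 (Day0), 1044, 1817 and 2355 (Day21) and 3212, 6253 and 0 (Day42). All days overlapped and no comparison passed. CALCA, its paralog, encodes calcitonin and the alpha form of that peptide, and had counts of 113, 42 and 101 (Day0), 61, 38 and 100 (Day21) and 0 in every Day42 library. It was lower on Day42 than on Day21 by at least 7.74-fold (edgeR adjusted p = 0.00441, lost only with voom weights, at 0.0616) and at least 11.3-fold lower than on Day0 (edgeR adjusted p = 0.00314). The span of CALCA lies inside that of CALCB on the opposite strand, and the genes are near copies in part, so the division of reads between them is uncertain. Exons of CALCB also overlap those of CALCP on the same strand. IAPP, for amylin, was above 12 in 2 Day21 libraries (66 and 36) and in Day42 replicate 2 (186).

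The natriuretic peptides and endothelins act mainly on heart, vessels and kidney, and EDN3 also on neural crest. NPPA counts were 9, 14 and 13 on Day0 and 0 in the 6 later libraries. It was lower on Day42 than on Day0 by at least 1.53-fold (edgeR adjusted p = 0.00986, lost in 3 of 12 other settings, one of them without Day0 replicate 1, up to 0.134), a bound close to 1 because its Day0 counts lie at the limit. NPPB counts were 20, 28 and 35 (Day0), 0, 13 and 0 (Day21) and 0 in every Day42 library, at least 3.49-fold lower than on Day0 (edgeR adjusted p = 0.0406, lost in 9 of 16 other settings, up to 0.216). NPPC, the C-type peptide of brain and bone, had 53 to 150 on Day0, 60 to 196 on Day21, and 399, 376 and 0 on Day42, and no comparison passed. NPPA exons overlap those of CLCN6 on the other strand. EDN3 had counts of 24, 9 and 17 (Day0), 48, 63 and 51 (Day21) and 0 in every Day42 library. Day21 stood above both other days. Its fall from Day21 to Day42 was at least 6.33-fold (edgeR adjusted p = 0.00362) and passed under all 16 other settings. EDN1 ranged from 0 to 64 on Day0 and from 0 to 28 on Day21, and had counts of 6, 353 and 0 on Day42.

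Some hormones best known from the hypothalamus were low but measurable. ADCYAP1, encoding PACAP, had counts of 0 in all Day0 libraries, 17, 15 and 26 on Day21, and 0 in all Day42 libraries. Its fall from Day21 to Day42 was at least 2.26-fold (edgeR adjusted p = 0.0127), lost without any single Day21 library and in 2 further settings of 16 in all, with adjusted p-values up to 0.146. ADCYAP1 exons overlap the other-strand genes AP000894.3 and AP000894.2. GHRH, the growth hormone-releasing hormone gene, had counts of 24, 14 and 10 (Day0), 3, 5 and 19 (Day21) and 0 in every Day42 library. On Day42 it was at least 2.18-fold lower than on Day0 (edgeR adjusted p = 0.00899), and it passed against Day21 too (edgeR adjusted p = 0.0159), where 2 of the 3 Day21 counts were under the limit. Each of these GHRH calls was lost in 2 of 15 other settings, with adjusted p-values up to 0.0938 and 0.223. Without Day0 replicate 1 the bound against Day0 was 1.43-fold. HCRT, the orexin precursor, had counts of 64, 51 and 76 on Day21, at most 5 on Day0, and 148, 0 and 0 on Day42. HCRT passed between Day0 and Day21 with those days alone (5.09 ± 1.23 on the log2 scale, edgeR adjusted p = 0.0175). TRH, for thyrotropin-releasing hormone, had counts of 24 to 54 on Day21 and of 196, 266 and 0 on Day42. It did not pass in any comparison, and without Day42 replicate 3 it passed between Day0 and Day42 (edgeR adjusted p = 0.0423).

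AVP and OXT, the posterior pituitary hormone genes, reached 23 and 16 at most, on Day0, and were at 0 in all Day42 libraries. VIP reached 18, in 1 Day21 library. PTHLH, which encodes parathyroid hormone-related protein, was at 0 on Day0, at 39, 10 and 16 on Day21 and at 434, 406 and 0 on Day42. Of the 3 Day42 libraries 2 were thus far above Day0 and 1 equal to it. The level on Day42 was at least 15.2-fold that of Day0 (edgeR adjusted p = 0.0361), which was lost in 9 of 15 other settings with adjusted p-values up to 0.125. Its exons overlap the other-strand gene AC008011.2.

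The receptors and receptor partners for these peptides were read from a list of 59 genes, of which 54 were in the table and 33 were tested. From Day0 to Day21, 1 rose (OXTR) and 1 fell (SSTR2), beside 1.32% and 1.18% of all genes. With only those 2 days, 5 rose and 11 fell of 32 tested, beside 13.0% and 12.6% of all genes. From Day21 to Day42, 2 rose and 10 fell, which is 6.06% and 30.3% beside 6.52% and 19.7% of all genes. From Day0 to Day42, 2 rose and 14 fell. The latter are 6.06% and 42.4% of those tested, beside 8.82% and 23.4% of all genes. The median log2 change from Day0 to Day42 was -4.26 against -0.57 over all genes, and -1.32 against -0.29 with genes at 0 on a day set to their bound. The 4 receptors with the largest fitted changes were at 0 in every Day42 library, so that their bounds, not the fitted values, are given. GRPR, the gastrin-releasing peptide receptor, had counts of 405, 378 and 726 on Day0 and was at least 63.5-fold lower on Day42 (edgeR adjusted p = 0.0085), lost only with voom weights (0.0596). OPRD1, the delta opioid receptor, had counts of 127, 105 and 452 on Day0 and was at least 27.7-fold lower (edgeR adjusted p = 0.0039). The bound was 16.3-fold without Day0 replicate 3. RAMP3, a partner of the calcitonin receptor family, had counts of 159, 38 and 275 on Day0 and was at least 20.0-fold lower (edgeR adjusted p = 0.0144), lost without Day0 replicate 1 (0.0535) and with the replicate block (0.107). GALR2, a galanin receptor, had counts of 70, 85 and 93 on Day0 and was at least 10.6-fold lower (edgeR adjusted p = 0.0024). VIPR2, a receptor for VIP and PACAP named here after its values were seen, was not quite at 0 on Day42: its counts were 224, 223 and 341 (Day0), 119, 101 and 120 (Day21) and 0, 0 and 4 (Day42). Its log2 change from Day0 to Day42 was -8.09 ± 1.64 (edgeR adjusted p = 0.00648), passing under all 16 other settings and lying between -7.47 and -11.26 with 1 Day42 library left out.

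The receptors that rose in the fit of all 9 libraries were few, and are named here after their values were seen. With only Day0 and Day21, 11 of 32 fell and the 5 that rose were CALCRL, OPRK1, OPRL1, OXTR and RAMP1. Counts of RAMP1, a receptor partner, were 158, 328 and 222 (Day0), 5027, 7166 and 8054 (Day21) and 1937, 1044 and 8 (Day42). SSTR2, a somatostatin receptor, had counts of 918, 1037 and 1194 (Day0), 316, 290 and 105 (Day21) and 7975, 7667 and 15656 (Day42). Its course was opposite to that of SST in direction at both steps: it fell to Day21 (-2.32 ± 0.48, edgeR adjusted p = 0.0466, lost in 10 of 18 other settings, up to 0.225) and rose to Day42 (5.0 ± 0.54, edgeR adjusted p = 0.000791, passing under all 18). OXTR, the oxytocin receptor, had counts of 28, 36 and 80 (Day0), 1031, 492 and 374 (Day21) and 1070, 699 and 1485 (Day42). The rise of OXTR from Day0 to Day42 was 3.93 ± 0.72 on the log2 scale (edgeR adjusted p = 0.0043), while OXT itself was not detectable on any day. RAMP2, another receptor partner, rose from Day21 to Day42 (2.76 ± 0.78, edgeR adjusted p = 0.0319), which was lost in 10 of 18 other settings with adjusted p-values up to 0.115. Its change was 1.62 without Day42 replicate 3. The galanin receptor GALR1 was at 0 on Day42 as GALR2 was, while GAL was detectable in all 3 libraries.

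**Figure D5:**
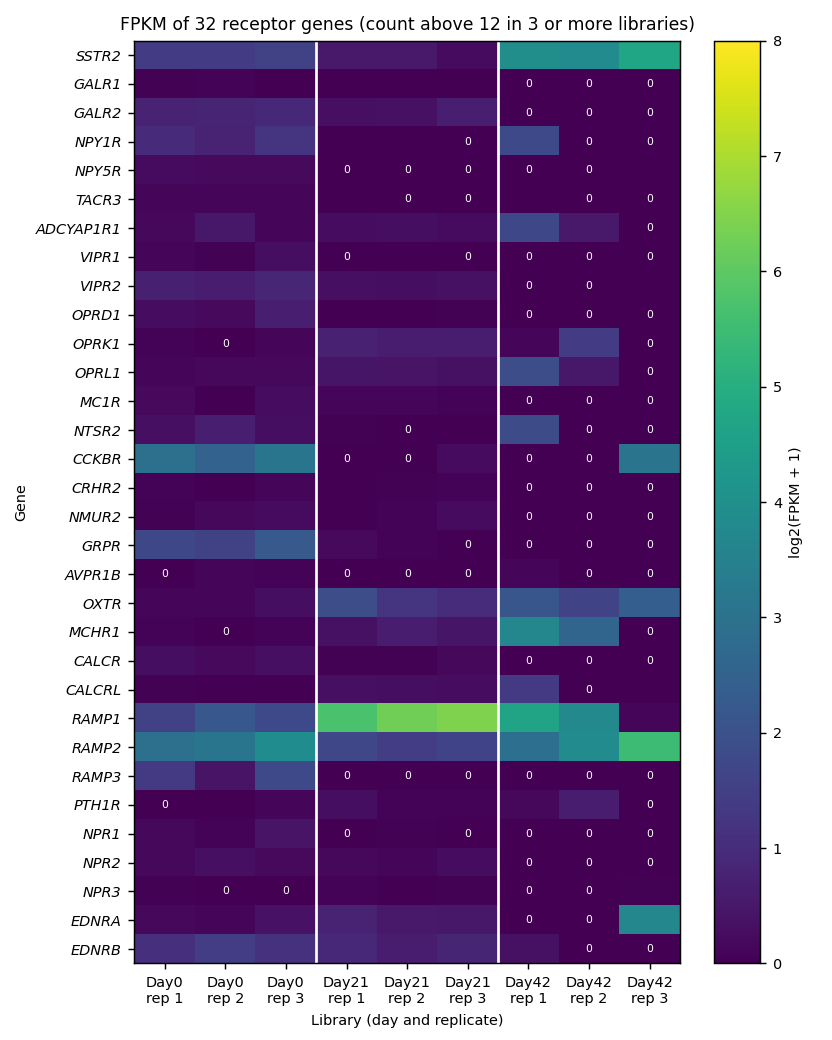
FPKM of the 32 receptor and receptor partner genes with a count above 12 in at least 3 libraries (rows), in the 9 libraries (columns), as log2(FPKM + 1) in colour. Cells marked 0 have an FPKM of exactly 0. SSTR2, OXTR and RAMP2 keep values above 0 in all 3 Day42 libraries, and most other rows are at 0 in at least 1 of them.

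Other peptide genes and binding proteins, a list of 35 of which 23 were in the table and 16 were tested, were read in the same way. From Day0 to Day21, 1 rose (CRHBP) and none fell, beside 1.32% and 1.18% of all genes, with 6 of the 16 (37.5%) at an unadjusted p under 0.05 by edgeR, beside 16.9% of all genes. The fit of these 2 days alone gave 2 higher and 5 lower, beside 13.0% and 12.6% of all genes. From Day21 to Day42 none rose and 7 fell, beside 6.52% and 19.7% of all genes. At an unadjusted p under 0.05 by edgeR were 9 of the 16 (56.2%), beside 36.9% of all genes. With those 2 days alone, 1 rose and 4 fell of 9 tested, beside 5.81% and 16.2% of all genes. From Day0 to Day42, 1 rose (CRHBP) and 8 fell, which is 6.25% and 50.0% of those tested, beside 8.82% and 23.4% of all genes. RLN2, a relaxin gene, had counts of 336, 330 and 247 (Day0), 45, 54 and 90 (Day21) and 0 in every Day42 library, at least 40.1-fold lower than on Day0 (edgeR adjusted p = 0.00167). GHRL, the ghrelin gene, had counts of 152, 136 and 56 on Day0 and at most 12 later, lower on Day42 than on Day0 by at least 15.5-fold (edgeR adjusted p = 0.0275). The GHRL call was lost in 5 of 16 other settings, among them each single Day0 library left out, with adjusted p-values up to 0.109. CORT, for cortistatin, a peptide close to somatostatin, had counts of 47, 50 and 91 (Day0), 131, 21 and 6 (Day21) and 0 in every Day42 library, at least 7.87-fold lower than on Day0 (edgeR adjusted p = 0.00848, lost only with voom weights, at 0.0887). NPW, the neuropeptide W gene, named here after its values were seen, had counts of 746, 414 and 1790 (Day0), 85, 61 and 38 (Day21) and 30, 44 and 0 (Day42). Its log2 change from Day0 to Day42 was -5.88 ± 1.62 (edgeR adjusted p = 0.0241). It was lost in 5 of 18 other settings, among them without Day0 replicate 1 (0.0592) or 3 (0.072) or Day42 replicate 1 (0.0513), and was -6.51 without Day42 replicate 2.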

How the data were processed

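RNA sequencing of 9 libraries was used, made from about 10 ng of total RNA each with a low-input NEBNext kit, per the labels' protocols. The authors deposited raw read counts and FPKM values per gene in 1 table. The FPKM values were computed by the authors before deposit and were used as levels only. GRCh38, cutadapt 1.9 and FastQC appear in the submitters' processing notes. The sources used here do not give the aligner, the counter, its strand setting or the annotation.

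Columns were matched to libraries by their names. Counts were tested with edgeR 4.0.16 (R 4.3.3) after filterByExpr and TMM scaling, leaving 20156 genes and 6 residual degrees of freedom. The SE of an edgeR log2 change is the size of that change divided by the square root of the test's F statistic. It is approximate, and least reliable where a day is near 0. Alternatives used DESeq2 1.42.0, limma 3.58.1 on log2(FPKM + 1) and log2(FPKM + 0.1), voom weights, other filters and scaling, only the days compared, a replicate block and each library left out. The fitting was run on simulated counts with an equal spread in all libraries and planted changes on Day21 only. The simulated spread was a fixed value smaller than that of Day0, Day21 or Day42. The wider spread and many zeros of the Day42 libraries were not simulated. The run therefore does not check the calls made with the real libraries, those between Day0 and Day21 included. A fold bound sets the mean of one day, in scaled CPM, against 12 counts per library of the day at 0. On Day42, where counts of 0 often stood beside high counts in other replicates, it is not a sure minimum. Exon overlaps come from GENCODE release 29 and promoters from RefSeq. Other-strand overlaps not given above were those of UTS2B (CCDC50), PNOC (AC021678.2), UCN (TRIM54) and PMCH (PARPBP, HELLPAR). Genes named with all counts are those that passed a test or had a mean FPKM of at least 5 on some day, and of each other list up to 4 that passed with the largest fitted log2 change, whose order against days at 0 is not one of measured folds. The peptide genes, the other lists and the detection limit were chosen with earlier results of these data known.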

Additional observations from a re-analysis of the deposited data

How the results depend on the processing

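Depth limits the low genes: 12 counts are 0.172 to 0.205 CPM. From Day0 to Day21 the peptide genes called higher and lower numbered 1 and 1, against 5 and 7 by DESeq2, 2 and 3 with a count above 12 in 3 libraries as the filter, 9 and 13 by voom with sample quality weights, and 5 and 11 with only the 2 days. The limma fit gave 5 lower on log2(FPKM + 1), and 2 higher and 5 lower on log2(FPKM + 0.1). Shares over all genes are given only for the main fit and the fits of 2 days. The other counts in this section can therefore not be read as particular to the peptide genes. From Day21 to Day42, where 8 were lower, limma gave 4 with a pseudocount of 1 and 5 with 0.1. The 2 days alone gave 5, in a fit where 16.2% of all genes were lower. From Day0 to Day42, where 13 were lower, the 2 days alone gave 8, in a fit where 18.5% of all genes were lower. Fewer genes were tested in the fits of 2 days (23 and 22 peptide genes in the latter comparisons); the cause of the other shifts was not tested. Leaving out 1 library gave 0 to 4 higher and 1 to 6 lower from Day0 to Day21, 5 to 7 and 6 to 11 from Day21 to Day42, and 4 to 6 and 9 to 14 from Day0 to Day42. Detectable genes numbered 19 to 20, 17 to 20 and 6 to 11 on Day0, Day21 and Day42 with 1 library left out. These numbers could only stay or rise, because fewer libraries then had to pass. With an FPKM of at least 1 as the limit, 11 were detectable on Day0 and 8 on Day21. No called change reversed its sign under any of these settings. Of 19 calls from Day0 to Day42, 9 were never lost, of 14 from Day21 to Day42, 7, and of 2 from Day0 to Day21, 1.

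The labels number the replicates 1 to 3 on each day. They do not say that a number marks a shared culture, so the numbers were not taken as pairs. Libraries with the same number did not deviate together (r from -0.225 to 0.0266 over genes). For unlike numbers r was -0.182 to 0.301. With a replicate block, 0 genes were higher and 1 lower from Day0 to Day21, 4 and 4 from Day21 to Day42, and 4 and 6 from Day0 to Day42.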
